A study of Mus musculus with 4 samples.

Results

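The neuronal intermediate filament genes *Nefl*, *Nefm*, *Nefh*, *Ina* and *Prph* and the microtubule-associated protein genes *Map1a*, *Map1b*, *Map2* and *Mapt* were followed through the m6A peak lists of mouse spinal cord after peripheral nerve injury. The 9 genes were chosen by name, and each row of the deposited tables that carried one of these names was taken as a peak of that gene. Peaks were listed for 8 of the 9, among 13558 gene names in the tables. They held 58 of the 33556 peaks of the injured mice, 54 of the 34406 peaks of the sham mice and 24 of the 4812 rows of the table of differential peaks. No row carried the name *Nefl*.

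The mice were C57BL/6J, 6 to 8 weeks old, and their spinal cord was taken at day 7 from surgery. The chronic constriction injury (CCI) mice had loose silk ligatures tied around the sciatic nerve, and the sham mice had the same operation with no ligature. Each group gave 1 MeRIP library (IP), made from poly(A) RNA fragments pulled down with an m6A antibody, and 1 input library made without the antibody. The number of mice behind a library, and the segment and side of the cord, are not given in the sources used here. Each group thus rests on 1 pair of libraries, without replicates, so differences between the lists are given as values only, with no test. Read counts are not part of the tables, and the depth behind a peak is unknown. The height of a peak is its fold enrichment, the ratio of IP to input signal that the authors' caller printed. In such a bulk sample fewer cells of a type and less RNA per cell cannot be told apart, and a ratio to input measures neither.

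m6A is a methyl group on adenosine within mRNA, placed by a methyltransferase complex, removed by demethylases and bound by reader proteins that influence splicing, translation and decay. It is concentrated in long internal exons and near stop codons. Neurofilaments are the intermediate filaments that fill large axons and set their calibre, and the microtubule-associated proteins bind and stabilise the microtubules along which axonal and dendritic cargo moves. Both groups of mRNA are abundant in spinal neurons, the motor neurons whose axons run in the sciatic nerve included.

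The labelled tissue was checked against marker genes. All 5 neuronal markers examined (*Rbfox3*, *Snap25*, *Syt1*, *Eno2* and *Stmn2*) had peaks in both lists, as did 5 of 6 *Hox* genes of the trunk and 4 of 5 motor neuron genes, whereas 1 of 5 forebrain genes had a peak in either list. Of 6 genes typical of sensory ganglion neurons, 1 had a peak in CCI and 3 in sham. All 5 Schwann cell markers and all 4 markers each of astrocytes, oligodendrocytes and microglia had peaks in both lists. A peak needs RNA of the gene but does not measure its level, so the share of each cell type was not tested.

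The number of peaks differed widely between the 8 genes. *Map1a*, *Map1b* and *Map2* had 9 to 12 peaks each in either list, a number of 9 or more that 2.09% (CCI) and 2.01% (sham) of gene names reached. *Mapt* had 8 in each list, *Nefm*, *Nefh* and *Ina* had 3 to 6, and *Prph* had 2 in CCI and 5 in sham, with a median of 2 over all gene names in either list. Many of these peaks were low. The median fold enrichment was 4.04 in CCI (range 1.21–200) and 3.62 in sham (1.14–166), against 5.72 and 5.70 over all peaks. Fold enrichment was below 2 for 17 of the 58 CCI peaks (29.3%, 95% Wilson interval 19.2–42.0) against 8.65% of all peaks, and for 14 of the 54 sham peaks (25.9%, 16.1–38.9) against 9.45%. At the other end, 16 CCI peaks (27.6%) and 12 sham peaks (22.2%) reached 10-fold, against 30.5% and 30.9% of all peaks. All intervals cover counting error only, and peaks of the same transcript are not independent.

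**Figure D1:**
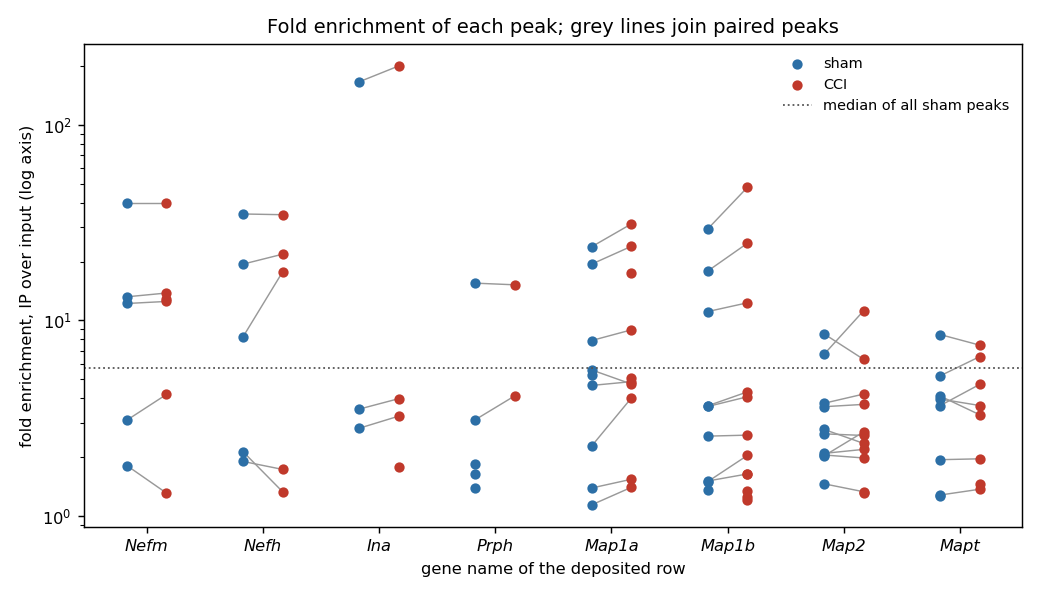
Each point is 1 peak named for the gene on the x axis, with its fold enrichment (IP over input, log axis) on the y axis, sham at the left and CCI at the right of each gene. Grey lines join paired peaks and the dotted line marks the median of all sham peaks, 5.70. The last 3′-UTR peak of *Ina* (166 and 200) stands above every other peak, and the peaks of *Map2* and *Mapt* crowd near and below the dotted line.

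Exons held a larger share of these peaks than of all peaks. In CCI 29 peaks (50.0%, interval 37.5–62.5) were annotated to an exon, 24 (41.4%, 29.6–54.2) to the 3′-UTR and 5 (8.62%, 3.74–18.6) to the 5′-UTR. Over all CCI peaks these shares were 35.5%, 49.8% and 14.7%. The sham list gave 28 exon peaks (51.9%), 21 in the 3′-UTR (38.9%) and 5 in the 5′-UTR (9.26%), against 35.1%, 48.9% and 16.1% of all peaks. The 3′-UTR counts of both lists include peaks named *Nefm* that lay within or just before *Nefl*, described below. Much of the exon count came from the single large coding exons of *Map1a*, *Map1b* and *Map2*. These held 3, 9 and 7 peaks in CCI and 2, 7 and 7 in sham.

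*Nefl* and *Nefm* encode the light and medium neurofilament subunits and lie close together on chromosome 14. In RefSeq (GRCm38.p6), *Nefl* spans chr14:68083863-68089095 and *Nefm* spans chr14:68119545-68125004. The peak tables instead gave *Nefm* a span of 68082590 to 68124846, which covers *Nefl*. Within this span, 2 peaks in each list bore the name *Nefm* but lay wholly within the RefSeq span of *Nefl*. The taller of them, at chr14:68086680-68087510, had the same borders in both lists and a fold enrichment of 13.8 in CCI and 13.2 in sham. The lower covered 300 bp in CCI, with a fold enrichment of 1.31, and 390 bp in sham, with 1.81. A peak named AC154687.1 (5.42 in CCI, 5.40 in sham) also had part of its length inside *Nefl*. The name *Nefl* was thus absent from the lists, while peaks lay in its interval.

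The order of the rows bore on the same peaks. On each chromosome the rows formed 2 runs, with 94.0% (CCI) and 93.8% (sham) of the first run named for genes on the plus strand and 92.3% and 92.1% of the second named for genes on the minus strand. The tables annotated *Nefm* to the minus strand, and all its other rows stood in the second run. The 2 rows over *Nefl* stood in the first run, where 38 of the 40 neighbouring rows belonged to plus-strand genes. AC154687.1 was annotated to the plus strand, but its row stood in the second run of each list. There 2 of its 40 neighbours were named for plus-strand genes. Whether the peaks were called by strand was not stated, and to which transcript the reads of these peaks belong was not tested.

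**Figure D2:**
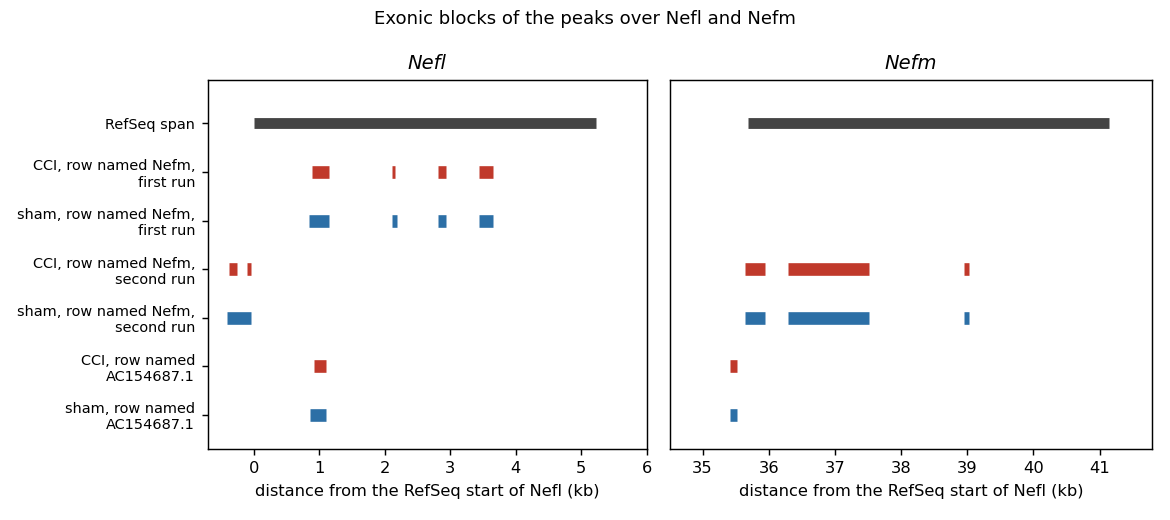
Exonic blocks of the peaks over *Nefl* (left) and *Nefm* (right), with the distance from the RefSeq start of *Nefl* in kb on the x axis and 1 line for each list, row name and run. Dark bars are the RefSeq spans. Rows of the first run named *Nefm* lie within the *Nefl* span, and those of the second run lie over *Nefm* or just before *Nefl*.

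Within the RefSeq span of *Nefm*, the main peak joined 2 exonic blocks of 1289 bp in all (chr14:68120160-68122884, annotated to exon 2 of 4). Its fold enrichment was 39.9 in CCI and 39.9 in sham, with the same borders. It was among the strongest signals of either list, since by its log10 p score it was the 4th of 34406 in sham and the 133rd in CCI, where 129 peaks were listed at minus infinity. The peak at the 3′ end of the gene (chr14:68119501-68119800, 300 bp in both lists) had a fold enrichment of 4.18 in CCI and 3.09 in sham. A further 3′-UTR signal just before *Nefl* was listed as peaks of 120 bp (12.5) and 61 bp (12.9) in CCI and as a single peak of 360 bp (12.2) in sham. By log10 p score these ranked far lower, at 30814 and 8511 of 33556 in CCI and at 11700 of 34406 in sham.

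*Nefh*, which encodes the heavy subunit with its long phosphorylated tail, had 5 peaks in each list and every one was paired. The 3′-UTR peak had a fold enrichment of 34.7 over 1431 bp in CCI and 35.0 over 1491 bp in sham, where it was the 2nd of all peaks by log10 p score. The peak in exon 4, the last exon, reached 21.8 in CCI and 19.4 in sham with the same borders. The signal near the start of the gene was less alike. The peak in exon 1 (chr11:4947289-4947557 in CCI) had a fold enrichment of 17.7 over 269 bp, against 8.25 over 299 bp in sham. The exon 2 peak was 1.33 over 90 bp in CCI and 2.13 over 210 bp in sham, and the 5′-UTR peak was 1.73 and 1.90. So, among pairs in which both peaks bore the same gene name, *Nefh* held the highest and the lowest log2 ratio of CCI to sham of the 8 genes, 1.10 in exon 1 and −0.68 in exon 2, around tall 3′ peaks that differed by 0.17 or less.

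*Ina* encodes alpha-internexin, which co-assembles with the neurofilament subunits in the central nervous system. Its last 3′-UTR peak, which ended at the annotated end of the gene (chr19:47024817-47025327 in CCI), had the highest fold enrichment of the 9 genes. The value was 200 over 511 bp in CCI, rank 173 of 33556, and 166 over 481 bp in sham, rank 236 of 34406. The other *Ina* peaks were low. The 3′-UTR peaks upstream of it gave 3.24 and 3.98 in CCI and 2.81 and 3.52 in sham. The 5′ part of the gene was split between names. In sham, a peak of 1081 bp named *Nt5c2* lay wholly within *Ina* with a fold enrichment of 6.72. In CCI, the same interval held a 301-bp peak named *Nt5c2* (20.1) and a 391-bp peak named *Ina* (1.78). These 2 *Nt5c2* rows stood in the first run, with 40 of 40 neighbouring rows named for plus-strand genes, whereas *Nt5c2* is annotated to the minus strand. A second *Nt5c2* peak lay at the same place in the second run of each list, with a fold enrichment of 8.75 over 240 bp in CCI and 4.73 over 299 bp in sham, and with 2 and 3 of its 40 neighbours named for plus-strand genes. To which transcript each of these peaks belongs was not tested. The 391-bp *Ina* peak of CCI and the 1081-bp *Nt5c2* peak of sham were each other's best overlap. Their log2 ratio was −1.92, lower than that of any pair of the 9 genes with a shared name. Since their names differ, they were left out of the pairs below.

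*Prph* encodes peripherin, an intermediate filament of neurons with axons in peripheral nerves. Its 3′-UTR peak at the end of the gene had a fold enrichment of 15.2 in CCI and 15.5 in sham. The 5′-UTR peak at its annotated start gave 4.12 over 149 bp and 3.11 over 208 bp. Sham alone listed peaks in exons 1, 4 and 5, with fold enrichments of 1.63, 1.84 and 1.39. *Prph* was thus the only one of the 8 genes with fewer peaks in CCI than in sham (2 against 5), and the whole difference lay in peaks below 2-fold.

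*Map1a*, which encodes the large MAP1 protein of mature neurons, carried some of the longest peaks in the data. They lay in its large exon 5. The CCI list had peaks there of 3027, 2787 and 1080 bp with fold enrichments of 23.9, 31.1 and 17.5. The sham list had peaks of 3447 and 4046 bp with fold enrichments of 19.4 and 23.8, ranked 12th and 6th by exonic length among all sham peaks. The second sham peak covered both the 2787-bp and the 1080-bp CCI peak, and its value lay between theirs. The 3′-UTR peak (chr2:121308974-121309454, same borders) gave 8.94 in CCI and 7.89 in sham. A peak in exon 2 gave 4.00 over 210 bp in CCI and 2.28 over 91 bp in sham. The 5′-UTR peak, of 5 blocks and the same borders, was lower in CCI, 4.73 against 5.58. At the 3′ end 2 overlapping peaks stood in different runs in each list (5.09 and 4.86 in CCI, 5.23 and 4.65 in sham).

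*Map1b* encodes the MAP1 protein that prevails in growing axons. All 8 of its pairs had a higher fold enrichment in CCI, by log2 ratios of 0.02 to 0.70. The tallest peak lay in exon 5 and was listed at 47.9 over 720 bp in CCI (chr13:99433802-99434521) and at 29.4 over 1020 bp in sham. The bases missing from the CCI peak were largely listed there as a separate 241-bp peak with a fold enrichment of 1.64, so the values refer to different stretches. The 3′-UTR peak of 780 bp (chr13:99425250-99427286) had the same borders in both lists, and gave 24.8 in CCI and 17.9 in sham. Lower peaks gave 12.3 and 11.1, 4.31 and 3.66, and 2.59 and 2.56. CCI also listed 3 peaks with no counterpart, at 1.21, 1.25 and 1.34, and sham 1 at 1.35.

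*Map2*, the marker protein of dendrites, had 11 peaks in CCI and 10 in sham, of which 7 in each lay in exon 7. Here peaks of the same exon went opposite ways. The peak at chr1:66414756-66415326 (571 bp, same borders in both lists) gave 11.2 in CCI and 6.71 in sham. The first peak of the same exon, upstream of it, gave 6.32 in CCI and 8.53 in sham. The other 5 peaks of exon 7 lay between 1.33 and 2.69 in CCI and between 1.46 and 2.77 in sham. The 5′-UTR peaks, spread over several exons, hardly differed (3.72 and 2.19 in CCI, 3.62 and 2.09 in sham). Sham had no peak in the *Map2* 3′-UTR, and CCI had 1, at 1.31.

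*Mapt* encodes tau, the axonal microtubule-associated protein. It had 8 peaks in each list, 5 of them in the 3′-UTR, and no fold enrichment above 8.46. A peak of 6 exonic blocks (chr11:104299028-104310442 in CCI) gave 7.47 in CCI and 8.46 in sham. The longest 3′-UTR peak gave 6.53 over 1137 bp and 5.21 over 1077 bp. The exon peaks further upstream gave 3.29 and 1.96 in CCI and 4.10 and 1.94 in sham. No *Mapt* pair differed by 1.5-fold.

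**Figure D3:**
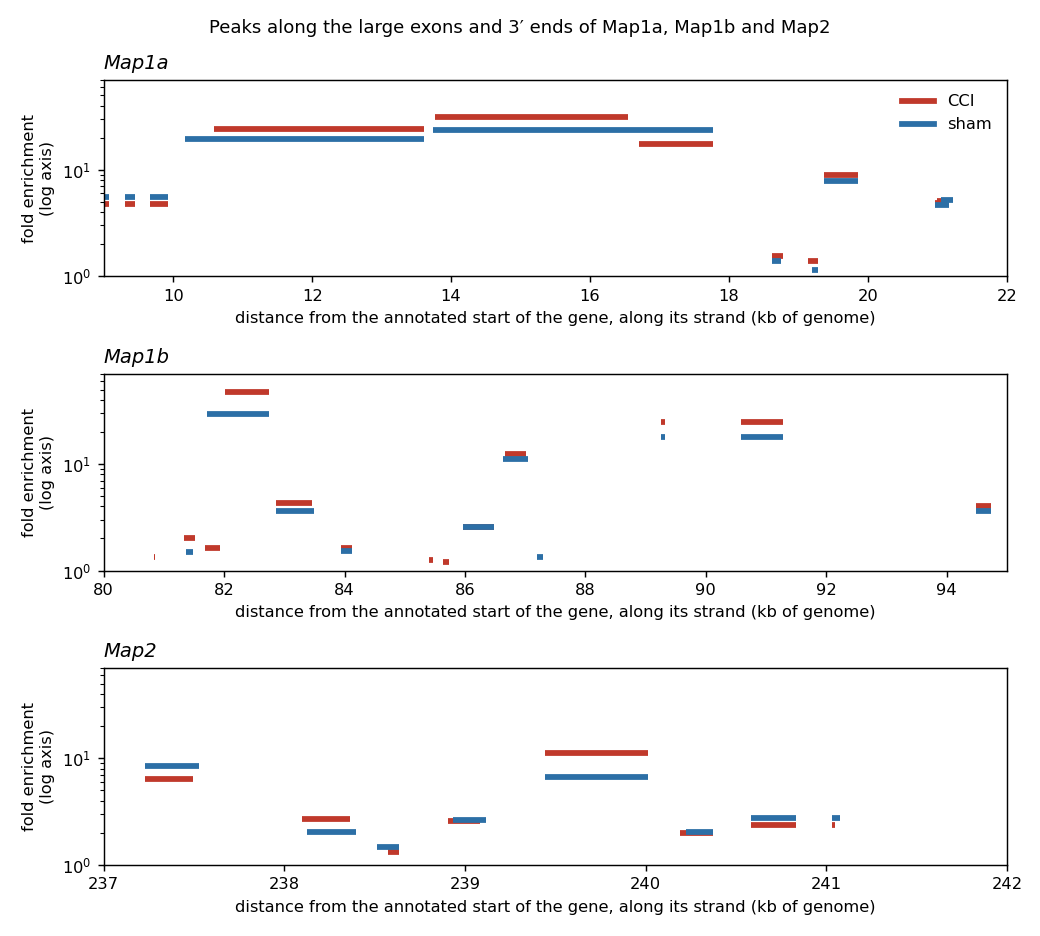
Peaks drawn along the large exons and 3′ ends of *Map1a* and *Map1b*, and along the large exon of *Map2*, whose 3′ end is not drawn. The x axis gives the distance from the annotated start of the gene (kb, along its strand) and the y axis fold enrichment (log axis). Each bar is an exonic block of 1 peak, and where CCI and sham coincide, as at 2.59 and 2.56 in *Map1b*, a bar can hide the other. The CCI list splits the second sham peak of *Map1a* and shortens the tallest peak of *Map1b*, while in *Map2* the CCI bar is above the sham bar at 11.2 and below it at 6.32.

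To compare the lists as a whole, a peak was said to have a partner if it shared at least 1 exonic base with a peak of the other list. Partners were found for 54 of the 58 CCI peaks (93.1%, interval 83.6–97.3), against 87.7% of all CCI peaks. They were found for 49 of the 54 sham peaks (90.7%, 80.1–96.0), against 83.9% of all sham peaks. The peaks present in 1 list only were all low. The 4 without a partner in CCI (3 in *Map1b*, 1 in *Map2*) had fold enrichments of 1.21 to 1.34, and the 5 in sham (3 in *Prph*, 1 each in *Map1b* and *Mapt*) had 1.27 to 1.84. Over all genes, peaks without a partner had a median of 3.17 in CCI and 4.13 in sham, below the 6.14 and 6.01 of peaks with one. No gene of the 9 gained or lost all its peaks.

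Peaks of the 9 genes that were each other's best overlap and bore the same name were then paired, and the log2 ratio of fold enrichment, CCI over sham, was taken for each pair. This gave 48 pairs in 8 genes. Over all genes there were 27380 pairs, whatever their names. The median ratio of the 48 pairs was 0.13 (middle 50% from −0.03 to 0.31), and the median of all pairs was 0.03 (−0.37 to 0.43). CCI was the higher in 33 of the 48 pairs (68.8%), against 51.8% of all pairs. This count leaves out 5 CCI peaks that overlapped a sham peak but were in no pair. Those in *Map1a* exon 5 (17.5 against 23.8) and *Map1b* exon 5 (1.64 against 29.4) were lower than the sham peak. So was that in the *Mapt* 3′-UTR. That of *Nefm* just before *Nefl* was higher (12.9 against 12.2). That at the *Map1a* 3′ end (5.09) lay between the 2 sham peaks it overlapped (4.65 and 5.23). How far this shifted the share was not tested. Large differences were rare among the 48 pairs. At least 1.5-fold higher in CCI were 4 pairs (8.33%), in *Nefh* exon 1, *Map1a* exon 2, *Map2* exon 7 and *Map1b* exon 5, against 18.8% of all pairs. At least 1.5-fold lower in CCI was 1 pair (2.08%), in *Nefh* exon 2, against 16.4% of all pairs. Both shares were below those of all pairs, and the 48 pairs come from 8 transcripts and are not replicates of each other.

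**Figure D4:**
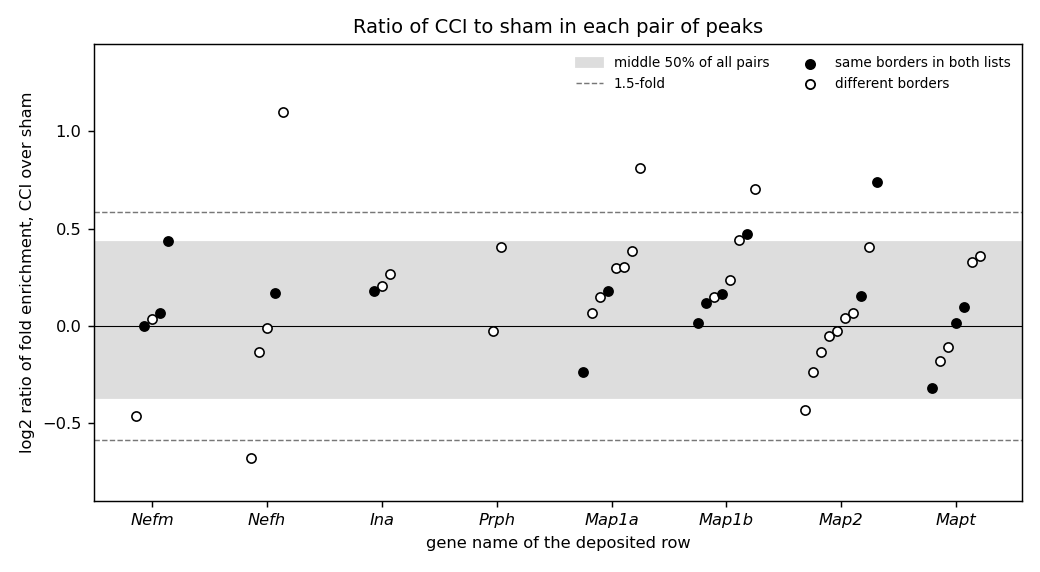
The y axis gives the log2 ratio of fold enrichment, CCI over sham, for each pair of peaks, grouped by gene on the x axis and sorted within each gene. Filled points have the same borders in both lists, the grey band holds the middle 50% of all pairs (−0.37 to 0.43) and dashed lines mark 1.5-fold. All 8 *Map1b* points lie above 0 and 5 points in all lie beyond the dashed lines, of which 1 is filled.

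The small excess towards CCI lay mainly in the *Map1* genes and *Ina*. By gene, the median log2 ratio was 0.24 for *Map1a* (7 of 8 pairs higher in CCI) and 0.20 for *Map1b* (8 of 8). It was 0.20 for *Ina* (3 of 3) and 0.19 for *Prph* (1 of 2). For *Nefm* (3 of 5) and *Mapt* (4 of 7) it was 0.04 and 0.02. For *Map2* (5 of 10) and *Nefh* (2 of 5) it was 0.01 and −0.01. Some overlapping *Map1a* peaks were in no pair. The 1080-bp CCI piece of exon 5 had 17.5 against 23.8 for the sham peak that covers it, a log2 ratio of −0.44. The first-run peaks at the 3′ end, 5.09 in CCI and 5.23 in sham, had a log2 ratio of −0.04. They were paired only when pairing was kept within a run of rows. Of the pairs named *Nefm*, those at −0.47 and 0.06 lay within *Nefl* and that at 0.04 lay just before it. The pairs over *Nefm* itself had ratios of 0.44 and 0.00. The 33 pairs of the microtubule-associated proteins had a median of 0.15 and the 15 of the intermediate filaments 0.06.

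The borders of paired peaks often differed. Of the 5 pairs past 1.5-fold, only that of *Map2* had the same exonic borders in both lists. In the *Nefh* exon 2 pair and in the *Map1a* exon 2 pair the longer peak was more than 2 times the length of the shorter. The *Nefm* pair just before *Nefl* differed more in length, 120 bp against 360 bp, and its log2 ratio was 0.04. Among the 16 pairs with the same borders the median was 0.14, with 13 higher in CCI, against 0.07 and 56.1% over the 5237 such pairs of all genes. By region, the 19 pairs in the 3′-UTR had a median of 0.16 (all genes 0.06), with 15 higher in CCI (78.9%, all genes 54.4%). The 19 include the pairs named *Nefm* that lay within or just before *Nefl*. None of the 19 was past 1.5-fold, against 19.4% of all 3′-UTR pairs higher in CCI and 14.6% lower. The 24 in exons had a median of 0.13 (all genes 0.00). Of these, 4 were at least 1.5-fold higher in CCI (16.7%), close to the 17.2% of all exon pairs, and 1 was lower (4.17%), against 15.6%. The 14 pairs that reached 10-fold in at least 1 list had a median of 0.22, against 0.00 over the 11084 such pairs of all genes. This choice of pairs used the same values as the ratio. The pairs of *Nefh* exon 1 (17.7 in CCI, 8.25 in sham) and *Map2* exon 7 (11.2 and 6.71) reached 10-fold in CCI only. No pair of the 14 reached it in sham only, so the choice itself may have raised their median.

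The authors also deposited a table of differential peaks, built from all 4 libraries. Only its row positions, names and pooled fold enrichments were used here. All 8 genes with peaks had at least 1 row in it, that is 8 of the 9 names, against 25.3% of the gene names of the lists. Genes with many peaks have more chances of a row, and among genes with at least 3 sham peaks 43.2% had one, as did 8 of the 8 genes here. Counted by peak, 23 of the 54 sham peaks (42.6%) shared a base with a differential row, against 14.3% of all sham peaks. The same held for 24 of the 58 CCI peaks (41.4%), against 15.6%. *Map1a* and *Map1b* had 5 rows each, *Nefm* 4, *Nefh* and *Map2* 3 each, *Prph* 2, *Ina* and *Mapt* 1 each.

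The list values at these rows spanned both directions. At 22 of the 24 rows both lists had a peak, with CCI higher at 15 (68.2%), lower at 6 (27.3%) and equal at 1. Both lists had a peak at 4293 of all 4812 rows, with CCI higher at 43.4% and lower at 56.2%. CCI was at least 1.5-fold higher at 3 of the 22 (13.6%), against 22.8% of the 4293, and at least 1.5-fold lower at 1 (4.55%), against 25.5%. The main *Nefm* peak, with 39.9 in both lists, had a row, as did the *Nefh* 3′-UTR peak, with 34.7 and 35.0. The *Nefh* exon 1 peak, with the highest ratio of all 48 pairs, had none. The remaining 2 rows were low *Prph* exon peaks (pooled fold enrichment 1.57 and 1.22) that only the sham list held. How the authors' caller scored a difference at these sites was not tested.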

How the data were processed

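MeRIP-seq used 1 IP and 1 input library per group, and groups came from the labels. According to the study's methods, reads were trimmed with Cutadapt, aligned with bowtie, called with MACS2 and annotated with ChIPseeker. The submitters' processing notes name fastp, HISAT2, HOMER, ChIPseeker and GRCm38, and the column names are those of exomePeak output, so the caller is uncertain. The deposited fold enrichment is a ratio of IP to input made by the authors. The deposited log10 p and log10 FDR columns were read as a score and used for ranks and for an FDR alternative. The differential table also holds fold changes and p-values of the authors' own comparison, which were not used.

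Rows were matched to the 9 genes by exact gene name, and all 9 were named in the text. From a list of 56 other cytoskeletal genes, those with the 2 highest and 2 lowest median ratios among genes with at least 2 pairs were named. The genes and lists were chosen with earlier results of these data known. Overlap was counted in shared exonic bases. Pairs were reciprocal best matches by shared over joint exonic length. The pairing was tested on simulated peaks that stood apart from each other, so split, merged or overlapping peaks were not covered by that test. Alternatives changed the minimum fold enrichment, FDR, overlap, fold, region, centring and pairing. All 9 genes were found in RefSeq (GRCm38.p6). Tables were handled in pandas 2.3.3 and numpy 2.4.6, intervals came from scipy 1.17.1 and plots from matplotlib 3.10.9, under Python 3.11.15.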

Additional observations from a re-analysis of the deposited data

How the results depend on the processing

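Of 30 values recomputed under an alternative, 25 stayed close to those reported (a median within 0.1 on the log2 scale, a count within 1.5 times, a share within its interval), 5 moved and 0 changed direction. The share of CCI peaks with a sham partner was 97.6% among peaks of 2-fold enrichment or more and 79.3% when 50% of both peaks had to overlap. The number of pairs past 1.5-fold was 3 with the 50% overlap, 1 with the same exonic borders, and 1 at 2-fold in place of 1.5-fold. It was 6 when the *Ina* and *Nt5c2* pair was admitted. The median ratio, over the pairs or gene values that each alternative used, stayed between 0.11 and 0.17. Requiring the same borders, pairing within a run of rows and admitting pairs with only 1 row named for the 9 genes were chosen after seeing the data. An FDR below 0.01 removed none of their peaks, so its values, which are counted among the 25, say nothing about stability. No replicate could be left out. No paired analysis was possible because there was only 1 IP and 1 input library per group and the labels give no replicate numbers. Without read counts, the error of each ratio is unknown.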

Other observations

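The 56 other cytoskeletal genes give a setting for the 9. Peaks were listed for 51 of them in CCI and for 52 in sham, and 28 (50.0%) had a row in the differential table. Such a row was held by 25.3% of the gene names of the lists, and by 43.2% of those with at least 3 sham peaks. The 203 pairs of the 56 genes had a median log2 ratio of 0.01, with CCI higher in 104 (51.2%, all pairs 51.8%). CCI was at least 1.5-fold higher in 27 (13.3%), against 18.8% of all pairs. It was at least 1.5-fold lower in 22 (10.8%), against 16.4%. Among genes with at least 2 pairs, the lowest medians were those of *Lmna*, which encodes the nuclear lamins A and C (−0.89 over 2 pairs), and *Mark1*, a kinase that phosphorylates microtubule-associated proteins (−0.75 over 4 pairs). The 5′-UTR peak of *Lmna* gave a fold enrichment of 7.71 in CCI and 17.4 in sham, and that of *Mark1* gave 8.86 and 16.3. The highest among these genes were those of *Dpysl3*, a collapsin response mediator protein gene (0.82 over 2 pairs), and *Tuba1b*, which encodes an alpha-tubulin (0.44 over 2 pairs). The 5′-UTR peak of *Dpysl3* gave 34.9 over 480 bp in CCI and 17.4 over 330 bp in sham, and that of *Tuba1b* gave 11.1 and 7.17 with the same borders. Each of these 4 medians was picked as an extreme and rests on 2 or 4 pairs. Of the genes with 1 pair, *Tubb4b* (3.55), *Map6d1* (0.55) and *Dcx* (0.51) had ratios above that of *Tuba1b*, and were named after their values were seen.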
